A study of Mus musculus with 5 samples.

Results

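Mouse bone marrow macrophages exposed to lipopolysaccharide (LPS) for 21 h were compared with unstimulated macrophages, using 2 of the 5 arrays of an LPS time course, the arrays labelled 0 h and 21 h. Marrow of C3H/ARC mice had been cultured with human CSF-1, the growth factor that drives this lineage, to give these macrophages in vitro, and both groups received it. The 21 h culture was stimulated with LPS of S. minnesota at 10 µg/ml, and the 0 h culture had no LPS. RNA of each culture was hybridised on a 2-colour cDNA array against total RNA of whole C57BL6/J embryos of day 17.5, and the arrays of 0.5, 2 and 7 h serve below only to place the 21 h values in time. Each time was measured on 1 array, the labels do not say how many mice or cultures gave its RNA, and no p-value can be given, so genes are named by the size of their change and by whether their probes agree.

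LPS binds the receptor TLR4 on macrophages and switches on NF-kappaB and, through secreted type I interferon, the interferon-stimulated genes. In the hours that follow, macrophages are known to secrete cytokines and complement proteins and to draw energy from glycolysis, with hypoxia-inducible factor 1 as a regulator of the enzymes. CSF-1 keeps cultured macrophages dividing, and LPS is known to stop that division.

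The value of a gene on an array, called its level here, is the log2 ratio of macrophage to embryo RNA minus the array's median, averaged over the probes that carry only that gene's symbol. The change is the level at 21 h minus that at 0 h, and 8637 genes could be given one, 3015 of them from 2 or more probes. The deposited log ratios were read as log10, from their spread, and as macrophage over embryo, from marker genes, since the labels state neither. With base 2 in place of 10, each log2 change given here would be 3.32 times smaller, and with embryo over macrophage as the ratio, the words higher and lower would swap. At 0 h, 11 macrophage markers had a median level of 1.75 and 30 whole-embryo markers one of -1.24. The macrophage markers had a median change of -0.09 at 21 h with no member at or past 2-fold, from -0.98 for Laptm5 to 0.99 for Ctss.

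The 21 h array resembled the 0 h array for most genes. Over the 18296 probes measured on all 5 arrays the levels correlated with a Pearson's r of 0.828, a description across probes that share the embryo reference, and the SD of the change over probes was 0.538. In all, 263 genes (3.05% of 8637) were higher by 2-fold or more, and 125 genes (1.45%) were lower by as much. The split rests on the processing: 67.8% of the genes at or past 2-fold were higher as reported, but 46.1% without centring and 45.3% after quantile normalization. The median of all genes was 0.02 as reported, -0.12 without centring and -0.02 after quantile normalization. The quantile value therefore does not show dependence on the centring, and its cause was not tested. The spread between probes of 1 gene, pooled over genes, was an SD of 0.47 on the log2 scale, which is technical and holds no variation between cultures.

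**Figure D1:**
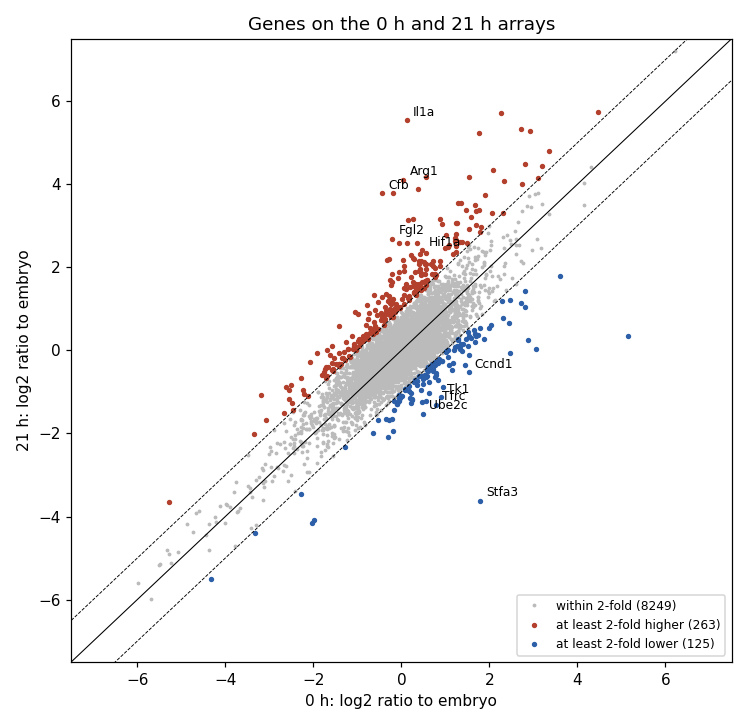
Each point is 1 of 8637 genes, placed by its level at 0 h (x axis) and at 21 h (y axis), both as log2 ratio to the embryo reference; the solid line marks equal levels and the dashed lines a 2-fold difference. The 263 red genes lie at least 2-fold above and the 125 blue genes at least 2-fold below the solid line, with Il1a the farthest above (5.42) and Stfa3 the farthest below (-5.41), each on 1 probe.

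Probes of 1 gene show how far its value depends on the clone, but they share the RNA and are no replicates of the culture. Of the 3015 genes with several probes, 73 had a mean change at or past 2-fold, and in 63 of these every probe had the same sign, which a large mean of the same probes makes likely by itself. In 33 genes (1.09% of 3015) the mean was at least 2-fold higher and every probe at least 1.5-fold higher, and 13 genes (0.431%) met the same rule in the lower direction. For 13 genes, among them Gsn, Idh1, Nrp1 and Epcam, 1 probe was at least 2-fold higher and another at least 2-fold lower, and these are left uncertain. The other 213 higher and 102 lower genes rest on 1 probe.

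**Figure D2:**
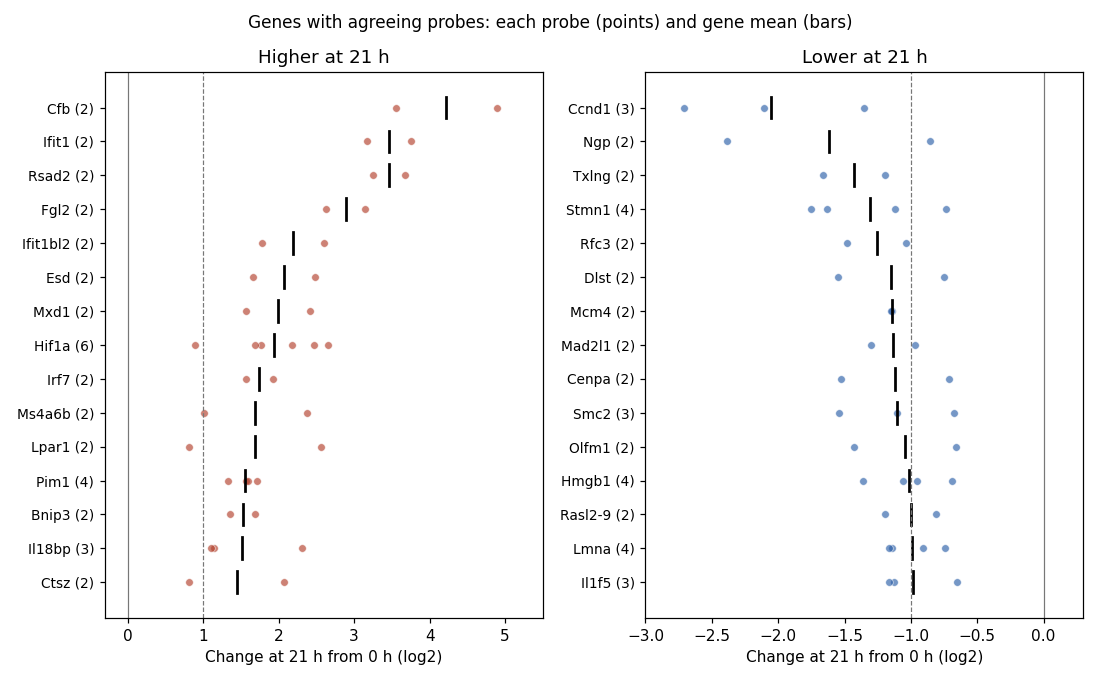
The 15 highest (left) and 15 lowest (right) genes whose probes were all at least 1.5-fold changed in 1 direction are shown, with each probe as a point, the gene's mean as a black bar and the number of probes in brackets; the x axis is the log2 change at 21 h from 0 h and the dashed line marks 2-fold. Cfb leads the higher genes at 4.22 and Ccnd1 the lower genes at -2.06, and no probe of a gene shown lies on the other side of 0.

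Probe numbers carry a pattern that bears on single values. Among 207 runs of 96 consecutive probe numbers, 92 had at least 10% of their probes 2-fold or more above 0 h on the 0.5 h or the 2 h array, and these marked runs held 43.6% of the probes. At 21 h, 5.12% of the probes in marked runs were at least 2-fold higher and 2.90% at least 2-fold lower, against 3.14% and 1.36% of the other probes. The marking of runs and the change at 21 h share the 0 h array, so the share of higher probes is not independent of the marking. Levels at 0.5 and 2 h are therefore given with reserve, and the genes for which marked runs matter most are pointed out below. What the runs stand for on the array was not tested.

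The cell cycle genes were the largest group of lower genes among the lists examined. Of 132 measured genes of DNA replication, nucleotide supply and mitosis, 26 (19.7%) were at least 2-fold lower, against 1.45% of all genes. Only 1, Cdca2, was 2-fold higher (0.76%, against 3.05% of all genes). The median change was -0.43 against 0.02 for all genes. Of the 53 with several probes, 24 had every probe below 0 and 6 every probe above 0. Among all 3015 genes with several probes, 587 had every probe below 0 and 764 every probe above 0. In these bulk samples fewer dividing cells and less of these RNAs per cell cannot be told apart.

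Ccnd1, which encodes cyclin D1, the partner of CDK4 and CDK6 that carries growth factor signals into the cycle, had the lowest mean of the genes with agreeing probes. Its level was 1.53 at 0 h, 1.99 at 0.5 h, 0.95 at 2 h, -0.77 at 7 h and -0.53 at 21 h, so that both late arrays lay below the 3 early ones and 21 h stood close to 7 h. The change at 21 h was -2.06 (SD 0.68 over 3 probes, from -2.71 to -1.35), a ratio of 0.24 to 0 h. Myc, the growth-promoting transcription factor, had a change of -1.66 on 1 probe in a marked run, with levels of 0.62, 1.91, 1.52, -0.29 and -1.03 in order of time. Mxd1, a repressor that competes with Myc for its partner Max, had the opposite sign, with levels of -1.41, -1.09, -0.09, 1.27 and 0.58 and a change of 1.99 (SD 0.60, 2 probes). Among the other genes of the G1 list, the growth arrest gene Gadd45b (1.14, SD 0.80, 2 probes) and Mdm2, the ligase that degrades p53 (1.12, 1 probe), were past 2-fold and higher, and the other 26 of the 31 measured genes were within 2-fold.

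Of 71 measured genes of DNA replication and nucleotide supply, 8 (11.3%, against 1.45% of all genes) were at least 2-fold lower. None was 2-fold higher, and the median change was -0.32. The 2-fold lower genes included 2 of 12 in licensing, where 5 lay above 0, and 4 of 30 at the fork. Mcm4, a subunit of the replicative helicase, had levels of 0.17, 0.85, 0.37, -1.09 and -0.98 in order of time, low on both late arrays, and its change of -1.14 was the same in both probes to within an SD of 0.01. Rfc3, a subunit of the clamp loader, had levels of -0.18, 0.06, -0.15, -0.50 and -1.44, and its lowest value was that at 21 h, with a change of -1.26 (SD 0.32, 2 probes). The clamp itself, Pcna, had a change of -1.22 (SD 0.67) with all 4 probes below 0. The 19 genes of nucleotide supply had a median change of -0.60, led by the thymidine kinase Tk1 at -2.02 and the ribonucleotide reductase subunit Rrm2 at -1.48, each on 1 probe. Tk1 went from 0.89 at 0 h through 0.96, 0.47 and -0.13 to -1.13 at 21 h, lower on each array after 0.5 h.

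The mitosis list had the lower median of the pair, with 18 of 61 measured genes (29.5%) at least 2-fold lower and a median change of -0.67, which was -0.38 over the 21 genes with several probes. The role with the lowest median, -0.97, was that of spindle, chromosome and cytokinesis proteins, in which 15 of 16 genes were below 0 and 7 at least 2-fold lower. Stmn1, which encodes stathmin, a protein that destabilises microtubules, had levels of -0.35, -0.32, -0.57, -0.95 and -1.66 and a change of -1.31 (SD 0.47), with all 4 probes below 0. Smc2, a core subunit of condensin, had a change of -1.11 (SD 0.43, 3 probes), and its partner in that complex, Smc4, one of -1.17 on 1 probe. Tubb5, a beta-tubulin, was below 0 in all 7 probes (-1.10, SD 0.42).

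Cenpa, the histone H3 variant of centromeres, had levels of 0.53, 0.75, 0.39, -0.06 and -0.59 and a change of -1.12 (SD 0.58, 2 probes). Mad2l1, which holds the spindle checkpoint, had levels of 0.87, 1.19, 0.97, 0.39 and -0.27 and a change of -1.14 (SD 0.23, 2 probes). In both genes the 21 h level was the lowest of the 5 and the 7 h level the next. On single probes, the ubiquitin-conjugating enzyme of the anaphase-promoting complex Ube2c had a change of -2.02, the kinetochore scaffold Knl1 one of -1.84, cyclin A2 (Ccna2) -1.49, the proliferation antigen Mki67 -1.19 and survivin (Birc5) -1.16. Cdca5, which protects sister chromatid cohesion, had a change of -1.80, but its probe read 7.68 at 2 h between 1.44 at 0 h and 0.39 at 7 h, far from its own value on every other array. The mean of cyclin B2 (Ccnb2), -1.73, hides an SD of 1.76 between its 2 probes and is left uncertain.

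The marked runs held much of this. Without their probes 6 of 34 mitosis genes and 2 of 42 replication genes were at least 2-fold lower, and the medians were -0.37 and -0.20. Both probes of Rfc3, Mcm4, Mad2l1 and Cenpa, all 3 of Smc2 and the single probes of Ube2c, Tk1, Rrm2, Ccna2, Birc5, Knl1 and Cdca5 lay in marked runs, whereas outside them Ccnd1 was at -1.73, Pcna at -1.15, Tubb5 at -1.32 and Stmn1 at -0.73.

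Some neutrophil markers stood beside the cell cycle genes among the lower ones. The median change of 9 measured neutrophil and granule markers was -0.37. Of them 3 (33.3%, against 1.45% of all genes) were at least 2-fold lower and 1 (11.1%, against 3.05%) higher. Stfa3, a stefin, was at -5.41 on 1 probe, the granule protein Ngp at -1.62 (SD 1.08, 2 probes) and myeloperoxidase Mpo at -1.25, while Mmp9 was at 1.86. Stfa3 had a level of 1.79 at 0 h and of -4.33, -3.52, -3.58 and -3.61 on the LPS arrays. Its change thus rests on the 0 h reading of 1 probe, far from its value on every other array, and is left uncertain. Ngp had levels of 1.14, 1.54, 1.73, 1.36 and -0.48 and was low at 21 h only. Granulocyte precursors divide in marrow cultures, and the part of such cells in the lower cell cycle values was not tested. Among 6 B cell markers 1, Cd79b, was past 2-fold (1.79), and among 5 osteoclast markers Mmp9, which the neutrophil list also holds. No member of the dendritic, T and NK, mast, erythroid or stromal lists was at or past 2-fold.

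Promoters of 7 genes with agreeing probes are shown, 5 that hold a match and 2, Mad2l1 and Tpi1, that hold none, since the lower cell cycle genes and the higher hypoxia and glycolysis genes each have a known promoter element that the sequence can be searched for. They are RefSeq promoter windows of GRCm38.p6, from 250 bases before to 50 bases after the gene's start, 5′ to 3′ on the gene's strand. Capitals mark TTTGAA (the cell cycle genes homology region, CHR) in Cenpa and Smc2, TTCCCGC (the core of an E2F site) in Rfc3, and ACGTG (the core of the hypoxia response element) in Bnip3 and Hif1a, each searched on both strands, so that its reverse complement is also marked.
Cenpa, chr5:30666636-30666935, plus strand: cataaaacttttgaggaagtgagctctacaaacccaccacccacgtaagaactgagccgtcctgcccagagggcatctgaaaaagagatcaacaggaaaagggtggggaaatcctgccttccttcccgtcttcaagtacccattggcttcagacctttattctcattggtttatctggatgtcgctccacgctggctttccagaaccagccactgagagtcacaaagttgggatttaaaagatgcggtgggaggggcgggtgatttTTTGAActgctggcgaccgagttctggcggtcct
Smc2, chr4:52438971-52439270, plus strand: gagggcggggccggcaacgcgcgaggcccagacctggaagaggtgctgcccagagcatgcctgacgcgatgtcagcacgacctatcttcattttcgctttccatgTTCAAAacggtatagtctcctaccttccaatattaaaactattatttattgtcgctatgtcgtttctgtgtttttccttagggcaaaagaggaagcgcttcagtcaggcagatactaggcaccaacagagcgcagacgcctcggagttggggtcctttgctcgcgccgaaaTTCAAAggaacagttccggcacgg
Rfc3, chr5:151651159-151651458, minus strand: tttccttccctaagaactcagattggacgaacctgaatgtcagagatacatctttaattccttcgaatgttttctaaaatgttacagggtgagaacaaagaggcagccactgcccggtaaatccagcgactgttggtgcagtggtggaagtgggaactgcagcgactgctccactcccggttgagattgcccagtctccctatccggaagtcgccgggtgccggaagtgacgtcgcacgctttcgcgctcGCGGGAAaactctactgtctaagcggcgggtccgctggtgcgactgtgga
Mad2l1, chr6:66534971-66535270, plus strand: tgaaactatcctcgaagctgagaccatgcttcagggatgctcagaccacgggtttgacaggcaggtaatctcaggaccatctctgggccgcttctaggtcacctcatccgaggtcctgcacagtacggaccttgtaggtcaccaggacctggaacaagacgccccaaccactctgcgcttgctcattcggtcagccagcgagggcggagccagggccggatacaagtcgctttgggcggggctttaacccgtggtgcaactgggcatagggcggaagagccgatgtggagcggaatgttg
Bnip3, chr7:138909457-138909756, minus strand: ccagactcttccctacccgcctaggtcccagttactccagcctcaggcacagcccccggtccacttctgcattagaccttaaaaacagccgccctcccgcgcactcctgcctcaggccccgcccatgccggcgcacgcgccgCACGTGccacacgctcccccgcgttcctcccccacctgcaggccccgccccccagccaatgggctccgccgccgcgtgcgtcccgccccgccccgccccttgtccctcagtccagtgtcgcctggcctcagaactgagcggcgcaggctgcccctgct
Hif1a, chr12:73907617-73907916, plus strand: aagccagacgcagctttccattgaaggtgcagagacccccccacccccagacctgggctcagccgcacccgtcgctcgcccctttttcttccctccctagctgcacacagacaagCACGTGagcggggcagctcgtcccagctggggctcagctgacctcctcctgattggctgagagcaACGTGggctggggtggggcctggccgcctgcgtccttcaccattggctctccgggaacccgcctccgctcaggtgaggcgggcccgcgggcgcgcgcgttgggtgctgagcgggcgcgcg
Tpi1, chr6:124814109-124814408, minus strand: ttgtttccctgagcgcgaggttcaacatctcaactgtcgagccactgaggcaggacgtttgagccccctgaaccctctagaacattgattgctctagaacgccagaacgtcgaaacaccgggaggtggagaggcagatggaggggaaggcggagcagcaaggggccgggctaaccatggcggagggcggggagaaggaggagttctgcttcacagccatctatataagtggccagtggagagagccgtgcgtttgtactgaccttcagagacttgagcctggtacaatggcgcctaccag
The single TTTGAA of Cenpa (change -1.12) begins at base 17 after the start and 1 of the pair in Smc2 (-1.11) at base 27, while the other Smc2 match lies 145 bases before the start. The E2F core of Rfc3 (-1.26) is on the reverse strand and begins at base 1 of the transcript. In Bnip3 (1.52) the palindrome CACGTG gives a match on each strand, 108 and 107 bases before the start, and Hif1a (1.94) holds the same palindrome and 1 more core 70 bases before the start.

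Over the 6963 measured genes with a promoter window, TTTGAA was present in 13%, and in 27 of 51 mitosis promoters (52.9%). Within the mitosis list it was present in 8 of the 13 promoters of genes at least 2-fold lower and in 19 of the 38 others, or 61.5% and 50%. TTCCCGC or TTGGCGC, both E2F cores, with a promoter that holds both counted once, were present in 25 of 62 replication promoters (40.3%) and in 11.4% of all. ACGTG was present in 17 of 30 promoters of the glycolysis list (56.7%) and in 24.7% of all, and in 20% of the promoters of the genes at least 2-fold higher. Some genes at or past 2-fold with a window and several probes, all of 1 sign, had no match to the elements searched for their group. In the cell cycle lists these were Pcna, Tubb5 and Mad2l1, all lower. In the hypoxia and glycolysis lists they were Pfkl and Tpi1 (higher) and Mxi1 (lower). These windows show letters, and no binding was measured.

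Glycolysis genes were the metabolic list with the highest median. Of 32 measured genes, 4 (12.5%, against 3.05% of all genes) were at least 2-fold higher, none was 2-fold lower and 23 lay above 0. The median change was 0.42 against 0.06 for the same genes at 7 h, 2 differences that share the 0 h array. Against the 0.5 h array in place of 0 h the list's median was 0.18. Of the 15 genes with several probes, 7 had every probe above 0 and only Pkm (-0.19) every probe below 0.

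Tpi1, the triose phosphate isomerase, had levels of -0.41, -0.43, -0.86, -0.34 and 0.77 in order of time. Only the 21 h array stood apart, and the change of 1.18 (SD 0.25) came with all 5 probes above 0, although all 5 lie in marked runs. Pfkl, the liver-type subunit of phosphofructokinase, which commits sugar to glycolysis, had levels of -0.23, -0.06, 0.18, 0.05 and 0.81 and a change of 1.04 (SD 0.07, 2 probes), of which 1 probe lies outside marked runs at 0.98. Pfkfb3, which makes the activator of that enzyme, was already high at 7 h, with levels of -0.06, 0.12, -0.15, 2.21 and 1.89 and a change of 1.95 on 1 probe outside marked runs. Glycogen synthase Gys1 had its only high value at 21 h, 0.16 after -1.07, -1.19, -0.98 and -0.90, a change of 1.22 on 1 probe.

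The remaining glycolysis genes gave smaller values. Gapdh, with 11 probes, had a change of 0.53 (SD 0.30) and 10 probes above 0, and Ldhb, a lactate dehydrogenase subunit, one of 0.49 (SD 0.51) with all 6 probes above 0. Aldolase A (Aldoa, 0.42, SD 0.29) and the pyruvate dehydrogenase kinase Pdk3 (0.77, SD 0.26), which restrains entry of pyruvate into mitochondria, had all 3 probes above 0. Pgk1, the enzyme after Gapdh, did not follow at -0.64 on 1 probe. Without marked runs the list's median was 0.23, and 2 of 28 genes were at least 2-fold higher.

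Hif1a, the oxygen-regulated subunit of hypoxia-inducible factor 1, had the highest change of any gene with 5 or more probes. Its level increased over the arrays in order of time, 0.47, 0.94, 1.36, 2.01 and 2.41, and the change at 21 h was 1.94 (SD 0.64) with all 6 probes above 0 and a lowest probe of 0.89, which is also the 1 probe outside marked runs. Bnip3, a mitochondrial protein of mitophagy and a known target of the factor, had levels of -0.76, -0.51, -0.84, -0.11 and 0.76 and a change of 1.52 (SD 0.23, 2 probes), and 21 h was its only array above the median. The list of the factor and its other known targets did not stand as a whole with these genes. Of 20 measured, 2 (10%, against 3.05% of all genes) were at least 2-fold higher, Hif1a and Bnip3, and the median was 0.13. The 1 lower gene (5%, against 1.45%) was Mxi1, whose 2 probes differ by an SD of 3.49.

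Mitochondrial lists stayed near the median of all genes. Of the 79 measured genes of the respiratory chain and ATP synthase, 2 (2.53%, against 3.05% of all genes) were at least 2-fold higher, Ndufv1 and Uqcr10. Their probes disagree in size by SDs of 1.87 and 1.29. The list's median change was 0.03, and its sign turned without centring (-0.12) and after quantile normalization (-0.02), so no direction is given. Cycs, cytochrome c, had a change of 0.20 with 8 of 10 probes above 0, and the ATP synthase subunit Atp5b one of -0.04 over 13 probes. The 95 genes of the mitochondrial ribosome and import had a median of -0.03. In the tricarboxylic acid cycle, with 21 genes and a median of -0.02, Dlst, the succinyl-transferring subunit of the 2-oxoglutarate dehydrogenase complex, was lower (-1.15, SD 0.56, 2 probes outside marked runs) and the isocitrate dehydrogenase subunit Idh3g higher (1.47, 1 probe). Dlst had levels of 0.71, 1.25, 0.65, 0.55 and -0.44, and 21 h was its only array below the median.

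**Figure D3:**
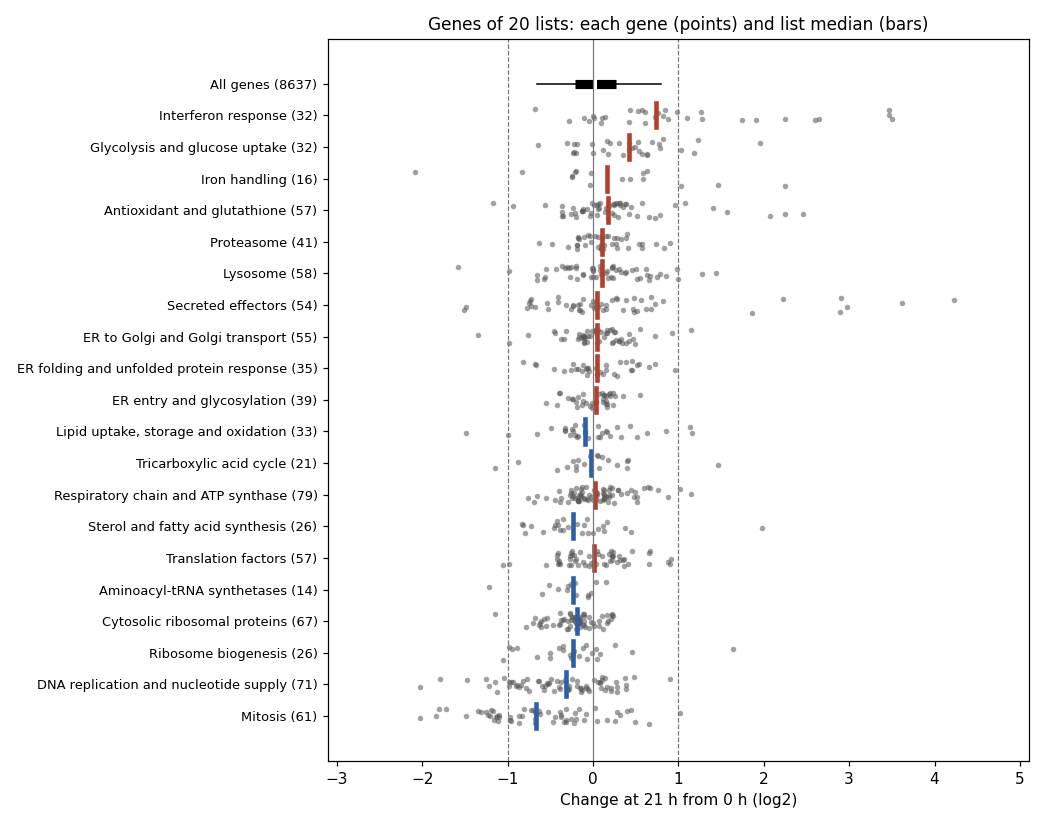
Each grey point is the change at 21 h (x axis, log2) of 1 gene of the list named on the y axis, with the number of measured genes in brackets; the coloured bar is the list's median (red above 0, blue below) and the top row gives all genes, with the thick bar from the 25th to the 75th percentile and the thin line from the 5th to the 95th. Mitosis (-0.67) and replication (-0.32) have the lowest medians of the lists drawn and the interferon (0.74) and glycolysis (0.42) lists the highest, while several bars near 0 turn sign without centring.

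Arginine metabolism held a gene that was high at 21 h alone. Arg1, arginase 1, which splits arginine into ornithine and urea, had levels of 0.05, 0.39, 0.61, -0.47 and 4.11 in order of time. The change of 4.06, a ratio of 16.7, rests on 1 probe, which lies in a marked run although it was not high at 0.5 and 2 h. Slc7a2, a transporter that brings arginine into the cell, had levels of -0.29, -0.52, 0.81, 1.82 and 2.19 and a change of 2.48, and Smox, spermine oxidase, had -0.08, -0.27, 0.96, 1.03 and 1.75 and a change of 1.83, each on 1 probe outside marked runs. Both were above their 0 h level from 2 h onwards. The genes that make polyamines from ornithine did not go with these: ornithine decarboxylase Odc1 had a change of -0.36 (2 probes), spermine synthase Sms one of -0.61 (4 probes) and the decarboxylase activator Azin1 one of -0.42 (3 probes), every probe below 0. Of the list's 21 genes, 3 (14.3%, against 3.05% of all genes) were past 2-fold and higher. Only 1 (4.76%, against 1.45%), brain-type creatine kinase Ckb, was lower (-1.56, 1 probe).

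Most cytosolic ribosomal proteins had small changes below 0. Of 67 measured cytosolic ribosomal proteins, 55 were below 0 and the median change was -0.19, against 0.09 for the same genes at 7 h, with 19 of the 59 multi-probe genes below 0 in every probe and 2 above 0 in every probe. Of all 3015 genes with several probes, 587 were below 0 in every probe and 764 above 0. Only Rpl3 was at or past 2-fold (-1.15, 1 probe in a marked run), and most changes are within the spread between probes. Without marked runs the median over 57 genes was -0.13, with 2 genes at least 2-fold higher and 0 lower. Examples whose probes agreed in sign were Rpsa at -0.79 (6 probes), Rpl4 at -0.70 (5 probes) and Rpl13 at -0.57 (5 probes), all of the ribosome's structure. The Rpsa probes outside marked runs were at -0.15, -0.04 and -0.85, and those inside at -1.33, -1.48 and -0.87. The elongation factor Eef1a1, which delivers aminoacyl-tRNA to the ribosome, had all 5 probes below 0 (-0.99, SD 0.53). Its probes outside marked runs were at -0.16 and -1.03. In ribosome biogenesis, with a median of -0.23 over 26 genes, the nucleolar proteins Nop56 (-0.95, SD 0.54) and fibrillarin (Fbl, -0.89 in both probes) were below 0. All probes of Nop56 and Fbl lie in marked runs. The helicase Ddx21 was higher (1.63, 1 probe). The 42 initiation factors had a median of 0.12, opposite in sign to the 15 elongation and release factors (-0.22).

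The machinery of secretion showed no shift as a group. The 39 genes of entry into the endoplasmic reticulum and glycosylation had a median change of 0.03, the 35 genes of folding and the unfolded protein response 0.05, the 55 genes of transport between reticulum and Golgi 0.05 and the 64 SNAREs, Rab proteins and exocyst subunits 0.06. Of these 193 genes, 1 was at least 2-fold higher, Copb1 (1.15), and 1 lower, Sec22b (-1.35), each on 1 probe. Each is a share of 0.52%, against 3.05% and 1.45% of all genes. Leaving out the centring lowered every gene alike, and the median of all genes went from 0.02 to -0.12. These medians then turned sign with it (-0.11, -0.10, -0.097 and -0.082), so none is given a direction. Within the folding list, chaperones and isomerases had a median of 0.15 and sensors, factors and degradation proteins one of -0.10.

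Single genes of the folding list carried agreeing probes, which the rule that named them required. Hspa5, the reticulum's main chaperone BiP, had levels of 0.71, 0.96, 1.35, 1.68 and 1.25 and a change of 0.54 (SD 0.16), and its 7 h level was the highest. Pdia3, a protein disulfide isomerase, had levels of 0.52, 0.69, 0.35, 0.50 and 1.25 and a change of 0.72 (SD 0.34), with 21 h alone high, and all 3 probes of both genes lie outside marked runs. Hsp90b1 had a change of 0.45 (SD 0.23, 2 probes), and Edem1, which passes misfolded glycoproteins to degradation, was below 0 in both probes (-0.82, SD 0.29). Serp1, which steadies membrane proteins under stress of the reticulum, had levels of 0.19, 0.39, 0.87, 2.38 and 1.53 and a change of 1.34 (SD 0.14, 3 probes), and Srgn, serglycin, the proteoglycan core that holds secreted proteins in granules, 0.58, 1.23, 2.41, 2.66 and 1.70 and a change of 1.12 (SD 0.23, 3 probes). Serp1 and Srgn peaked at 7 h and remained above 0 h at 21 h. Both lie outside the secretory lists above and were chosen after their values were seen, so they do not bear on those lists.

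A few secreted products had large changes. Cfb, complement factor B of the alternative pathway, had the highest change of the genes with agreeing probes, with levels of -0.44, -0.40, 0.60, 3.10 and 3.79 and a change of 4.22 (SD 0.94 over 2 probes, 3.56 and, in a marked run, 4.89), a ratio of 18.7. Both late arrays were high and 21 h was the highest. Fgl2, a secreted or membrane-bound prothrombinase, had levels of -0.21, -0.38, 0.53, 2.96 and 2.68 and a change of 2.89 (SD 0.37), with both probes outside marked runs. Il18bp, the secreted inhibitor of interleukin 18, had levels of 0.55, 1.70, 2.22, 1.86 and 2.07 and a change of 1.52 (SD 0.69, 3 probes, all in marked runs). This mean was high from 0.5 h on, but 1 of its probes, at 0.30, 0.70, 0.41, 1.33 and 1.41, was high on the late arrays only.

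Among products with 1 probe, Il1a, interleukin 1 alpha, had the highest change of any gene, 5.42, a ratio of 42.9, with levels of 0.12, 0.98, 3.72, 5.32 and 5.54. Il1rn, the receptor antagonist of interleukin 1, had a change of 2.64. Both lie in marked runs, as do the probes of Saa3, Serpinb2, Aoah and Cxcl10. Of 17 measured cytokines and growth factors, 3 (17.6%, against 3.05% of all genes) were at least 2-fold higher, Il1a, Il1rn and Il18bp. The 1 lower (5.88%, against 1.45%) was the growth factor Bmp2 (-1.26, 1 probe), while the 11 growth factors had a median of -0.05. Without marked runs none of 12 was 2-fold higher. Pla2g7, the phospholipase that inactivates platelet-activating factor, had levels of 0.56, 0.78, 1.5, 2.46 and 4.18 and a change of 3.62, highest at 21 h. The acute phase protein Saa3 (2.97), the plasminogen activator inhibitor Serpinb2 (2.90), the enzyme Aoah, which removes fatty acids from LPS (2.23), and the gelatinase Mmp9 (1.86) were also past 2-fold. Of 54 measured secreted effectors, 7 (13%) were at least 2-fold higher, 2 (3.70%) lower and 23 below 0, against 3.05% and 1.45% of all genes higher and lower. The list's median of 0.04 turned to -0.10 without centring. Without marked runs 4 of 41 were 2-fold higher and 3 lower. The lower ones were Serpinb6a, a protease inhibitor, at -1.51 on 1 probe, and lipoprotein lipase Lpl, which had a mean of -1.48 with 1 of 4 probes above 0. Cxcl10, a chemokine for T cells, had levels of 0.39, 1.69, 4.19, 5.81 and 3.89 and a change of 3.50, below its 7 h level. With Ccl12 (1.39) it was 1 of 2 among 19 chemokines past 2-fold (10.5%, against 3.05% of all genes), both on probes in marked runs.

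**Figure D4:**
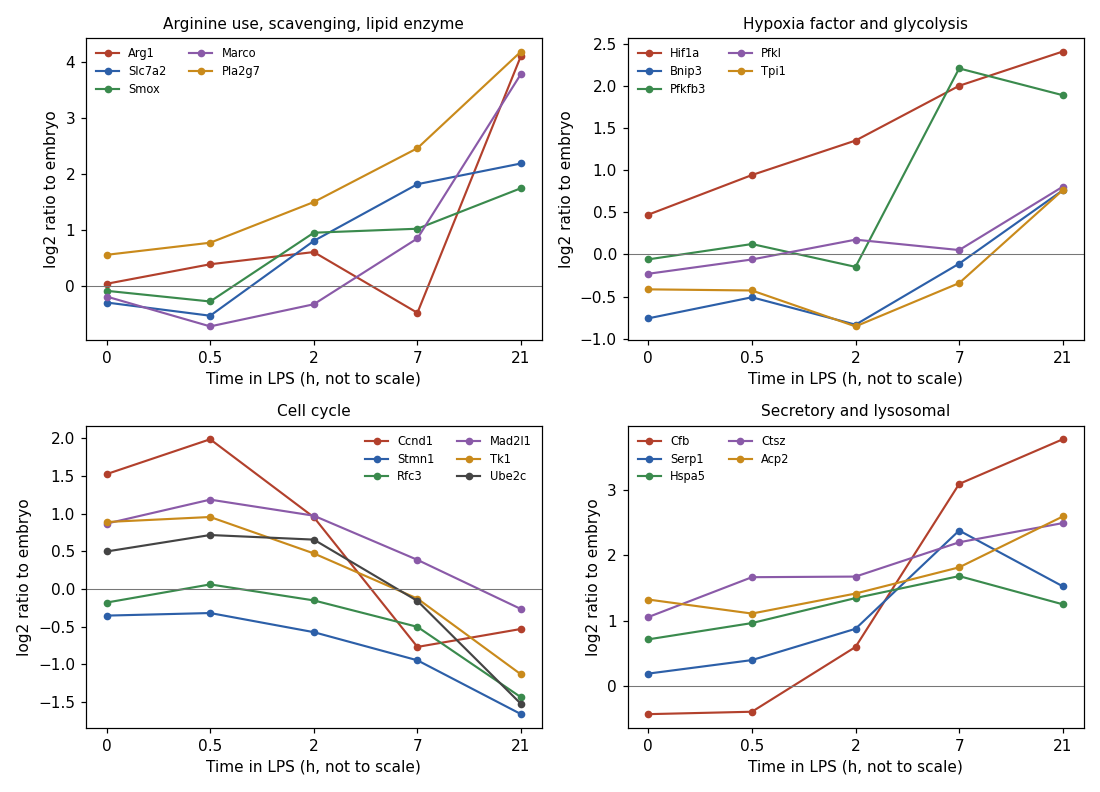
Levels (y axis, log2 ratio to embryo) on the 5 arrays (x axis, hours in LPS, evenly spaced and not to scale), 1 line for each gene, 1 array at each time. Arg1 is high at 21 h only (4.11), Hif1a increases over the arrays to 2.41, the 6 cell cycle genes lie lowest at 21 h except Ccnd1 (lowest at 7 h), and Serp1 and Hspa5 are highest at 7 h whereas Cfb, Ctsz and Acp2 are highest at 21 h.

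Iron and redox genes stood on both sides at 21 h. Fth1, the ferritin heavy chain that stores iron, had levels of 1.08, 1.20, 1.32, 1.91 and 2.55 and a change of 1.47 (SD 0.77) with all 4 probes above 0. The light chain Ftl1 had a change of 0.59 (SD 0.40, 6 probes), with a lowest probe below 0. Tfrc, the transferrin receptor that imports iron, had levels of 0.79, 1.06, 1.02, -0.07 and -1.30 and a change of -2.09 on 1 probe in a marked run. Hmox1, which releases iron from haem, had levels of 2.09, 2.52, 1.23, 2.21 and 4.33 and a change of 2.24 on 1 probe in a marked run, with only the 21 h array high. The 16 genes of the iron list held 3 at least 2-fold higher, the other being B2m (1.03, SD 0.39, 3 probes), and 1 lower.

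Prdx1, a peroxiredoxin that removes peroxide, had levels of 1.23, 1.23, 0.98, 1.53 and 2.80. Its change was 1.57 (SD 0.73) with 8 of 9 probes above 0, and 1.26 over the 3 probes outside marked runs. Esd, S-formylglutathione hydrolase, had levels of 0.23, 1.08, 0.77, 1.5 and 2.3 and a change of 2.07 (SD 0.57, 2 probes), Nqo1, a quinone reductase, one of 1.07 (SD 0.43, 2 probes), and thioredoxin Txn1 one of 0.73 (SD 0.10, 3 probes). Other enzymes of peroxide and lipid peroxide were lower: Mgst3, a microsomal glutathione transferase, was below 0 in all 7 probes (-1.17, SD 0.76), and glutathione peroxidase Gpx1 in 5 of 6 (-0.94, SD 0.56). Sod2, mitochondrial superoxide dismutase, had a mean of 2.46 with an SD of 2.02 and 1 of 4 probes below 0. The 57 measured antioxidant and glutathione genes had a median of 0.17. Of them 6 (10.5%, against 3.05% of all genes) were past 2-fold and higher, or 3 of 43 without marked runs.

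Interferon-stimulated genes still stood high after 21 h. Of 32 measured, 11 (34.4%) were at least 2-fold higher and none was 2-fold lower, and the median change was 0.74, against 1.28 for the same genes at 7 h. Without marked runs 5 of 21 were 2-fold higher, with a median of 0.72. Rsad2, viperin, which blocks virus replication, had levels of 2.26, 2.98, 5.68, 6.31 and 5.72 and a change of 3.46 (SD 0.30, 2 probes). Ifit1, which binds foreign RNA, had 1.76, 3.79, 6.30, 5.84 and 5.23 and a change of 3.46 (SD 0.42, 2 probes), and both probes of each gene lie in marked runs. Irf7, the factor that amplifies interferon production, had levels of 2.33, 2.63, 3.67, 4.57 and 4.07 and a change of 1.74 (SD 0.25), with both probes outside them. In all 3 genes the 21 h level was below the highest of the 5 and above the level at 0 h.

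Other genes with agreeing probes lay outside the groups above. Pim1, a serine kinase that favours survival, had levels of 0.54, 2.50, 3.63, 3.26 and 2.09 and a change of 1.55 (SD 0.16) in 4 probes, all in marked runs, and against the 0.5 h array its sign turned (-0.41). Lpar1, a receptor for lysophosphatidic acid, had a change of 1.69 (SD 1.23, 2 probes) and Ms4a6b, a membrane protein, one of 1.69 (SD 0.97, 2 probes outside marked runs). On the lower side, Hmgb1, a chromatin protein that also acts as an alarm signal when released, was below 0 in all 4 probes (-1.02, SD 0.28), as was Lmna, which encodes lamins A and C of the nuclear envelope (-0.99, SD 0.20, 4 probes). Their levels were -0.06, -0.18, -0.52, -0.95 and -1.08 for Hmgb1 and 0.44, 0.78, 0.53, -0.31 and -0.55 for Lmna, and in both the late arrays were low.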

How the data were processed

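RNA of C3H/ARC bone marrow macrophages at 0 h and 21 h of LPS was measured against whole embryo RNA on 2-colour cDNA arrays, 1 array for each time. The authors deposited 1 log10 ratio per probe and array; base 10 and the direction macrophage over embryo are inferred from the values, and dyes, background correction and normalization by the authors are not given in the sources used here. No intensities were used, so signal over background is unknown. Of 19828 probes, 14759 carried 1 symbol in the platform annotation of 2008, 170 several and 4899 were unnamed here; Entrez identifiers matched 14628 of those with 1 symbol to GRCm38.p6. Log2 ratios are the deposited values times 3.32, less each array's own median, taken over 18296 probes that all 5 arrays measured, and 13782 named probes were averaged per symbol (Python 3.11.15, numpy 2.4.6, pandas 2.3.3). With 1 array a group no test across arrays was possible. On simulated data the averaging over probes recovered the mean of planted changes. That simulation had noise independent between probes, no pattern of runs and no variation between cultures, so it does not bear on the counts of genes.

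Genes were named by 3 rules: the 15 highest and 15 lowest with 2 or more probes, each at least 1.5-fold in 1 direction; in each list up to 6 multi-probe members with probes of 1 sign and up to 3 single-probe members at or past 2-fold; and the 8 highest and 8 lowest single-probe genes at or past 2-fold that also differed 1.5-fold from 7 h or 0.5 h. Atp5b, Birc5, Ccna2, Cd79b, Cdca2, Ckb, Clec4n, Ctss, Cycs, Epcam, Fcgr1, Fcgr2b, Ftl1, Gapdh, Gpx1, Gsn, Idh1, Lamp1, Laptm5, Lpl, Mki67, Mmp9, Mpo, Ndufv1, Nrp1, Pgk1, Pkm, Prdx1, Rpl13, Serp1, Serpinb6a, Smc4, Sod2, Srgn and Stfa3 fall outside these rules and were chosen after their values were seen. The members, the 46 lists and the rules were chosen with earlier results of these data known. Alternatives were no centring, quantile normalization, centring on runs of 96 probe numbers, leaving out the marked runs, the median over probes, base 2, the 0.5 h array as baseline, probes measured on both arrays, multi-probe genes alone, and size rules of 1.5-fold and 3-fold.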

Additional observations from a re-analysis of the deposited data

How the results depend on the processing

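Against 263 genes at least 2-fold higher, 125 lower, a share of 67.8% higher, and 33 higher and 13 lower multi-probe genes with agreeing probes, leaving out the centring gave 222 lower, a share of 46.1%, and 21 and 30 multi-probe genes, with the median of all genes moved from 0.02 to -0.12. Quantile normalization gave 391 lower, 45.3% and 53 lower multi-probe genes. Leaving out the marked runs, with fewer probes, gave 150, 63, 10 and 8. The 0.5 h baseline gave 627 lower, 23.7% and 68 lower multi-probe genes, and multi-probe genes alone 50 and 23. Base 2 gave 8 higher, 2 lower, 80%, 3 and 0. The 1.5-fold rule gave 788, 560, 57 and 45, and the 3-fold rule 73, 24, 11 and 2.

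Medians of 18 of 46 lists turned sign without centring, 6 by quantiles, 5 centred on runs, 9 without marked runs and 16 at the 0.5 h baseline, and over multi-probe genes alone 10 of 43. Among the lists whose medians were compared under every alternative these were the respiratory chain (-0.12 without centring, -0.016 by quantiles), entry into the reticulum (-0.11 without centring, -0.016 at the 0.5 h baseline), folding (-0.10 without centring, -0.0042 centred on runs) and secreted effectors (-0.10 without centring, -0.018 by quantiles, -0.13 over multi-probe genes). There the glycolysis, ribosomal protein, replication and mitosis medians kept their sign in every alternative run. Base 2 only rescales and could turn no sign. Leaving out the centring lowers every gene alike, so among these medians it could have turned only that of glycolysis. Of 95 named genes at or past 2-fold, 84 were still past it without centring, 92 by quantiles, 85 centred on runs and 68 at the 0.5 h baseline. At that baseline Ifit1bl2 (-1.71), Oasl2 (-0.23) and Pim1 (-0.41) turned sign, and the cause was not tested. Without marked runs only 51 of the 95 could be measured, and 44 were still past 2-fold. The rest of the 95 rest wholly on probes in marked runs. No paired analysis was possible because each time has 1 array, and signal over background is unknown.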

Other observations

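Receptors of uptake stood on both sides. Of 15 measured phagocytic, scavenger and lectin receptors, 5 (33.3%) were at least 2-fold higher and 1 (6.67%) lower, each on 1 probe. The shares of all genes were 3.05% and 1.45%. Of the 15 receptors, 7 lay below 0 and the median change was 0.06. Without marked runs 1 of 10 was 2-fold higher and the median was -0.11. The 4 members with several probes had a median of -0.38, and the scavenger receptor Cd36 was below 0 in all 7 probes (-0.49, SD 0.28). Marco, a scavenger receptor that binds bacteria, had levels of -0.18, -0.71, -0.32, 0.85 and 3.78 at 0, 0.5, 2, 7 and 21 h and a change of 3.96, high at 21 h. The paired receptor Pilra had a change of 1.76, the Fc receptors Fcgr1 and Fcgr2b changes of 1.28 and 1.18, and the lectin Clec4n, dectin-2, one of 1.23, all 4 on probes in marked runs, unlike Marco. Colec12, a scavenger receptor of endothelium, was at -1.58.

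Of 58 measured lysosomal genes, 2 (3.45%) were at least 2-fold higher and 1 (1.72%) was lower. These shares are near the 3.05% and 1.45% of all genes, and the list's median change was 0.10. Acp2, the lysosomal acid phosphatase, had levels of 1.32, 1.11, 1.42, 1.82 and 2.60 and a change of 1.28 (SD 0.44, 2 probes), the cysteine protease Ctsz one of 1.44 (SD 0.89, 2 probes), and the cholesterol carrier Npc2 one of 0.85 (SD 0.17, 2 probes). The membrane protein Lamp2 had a change of 0.66 with all 3 probes above 0 and its relative Lamp1 one of -0.36 with both probes below 0. Arylsulfatase B, Arsb, was lower (-1.59, 1 probe). Of 41 proteasome genes none was at or past 2-fold, and the 5 interferon-inducible ones had a median of 0.41 at 21 h and of 1.23 at 7 h, 2 differences that share the 0 h array. All 7 probes of Psmb8, a catalytic subunit of the immunoproteasome, were above 0 (0.57). Of 26 sterol and fatty acid synthesis genes, 18 were below 0, with a median of -0.24 and Cyp51, a demethylase of the sterol pathway, at -0.72 (SD 0.29, 2 probes). Insig2, which restrains sterol synthesis, was at 1.98 on 1 probe in a marked run.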
